A study of Mus musculus with 4 samples.

Results

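Levels of 8 enzymes of cholesterol biosynthesis, Hmgcs1, Idi1, Fdps, Fdft1, Sqle, Lss, Cyp51 and Dhcr7, were compared between round spermatids of wild-type and Sox30 knockout mice. The 8 genes were taken by name from the 22552 gene symbols of the expression tables, and all 8 were found there. RNA came from haploid testis cells of male mice aged 23 days, collected by fluorescence-activated sorting on Hoechst staining, when according to the design text no haploid stage later than step 3 spermatids is present. There were 4 libraries. The 2 wild-type libraries carry the strain labels DBA/C57/ICR (library 1) and DBA/C59/ICR (library 2). The 2 libraries labelled as knockout of Sox30, which encodes a SOX family transcription factor, carry the strain labels DBA/C58/ICR (library 1) and DBA/C60/ICR (library 2). Strain labels thus differ in every library, and strain cannot be told apart from library. The labels state neither which part of Sox30 was deleted nor whether libraries that share a genotype are from different animals. The p-values therefore reflect library-to-library spread, which may be technical.

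Cholesterol is built from acetyl-CoA in a chain of enzyme steps. The mevalonate steps, which include HMG-CoA synthase (Hmgcs1), lead to isopentenyl diphosphate, which Idi1 isomerizes and Fdps joins into farnesyl diphosphate. Fdft1 condenses farnesyl diphosphate to squalene, the first product committed to sterols. Sqle oxidizes squalene and Lss closes the rings to give lanosterol. Cyp51, a cytochrome P450, then removes a methyl group from lanosterol, and Dhcr7 acts in the last reductions to cholesterol. In most tissues these genes are controlled together by the SREBP transcription factors through sterol regulatory elements (SRE). In the testis Cyp51 is known to be transcribed strongly in haploid germ cells, where the activator CREM acts through cAMP response elements (CRE), and the sterols that directly follow its step are known as meiosis-activating sterols. Leydig cells, which make testosterone from cholesterol, also express the pathway.

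The stretches before the start sites are shown for the 2 members that were lower in the knockout at the test's threshold, Cyp51 and Idi1, and for Lss, the enzyme one step before Cyp51, which did not pass. Each is the 250 bases before the RefSeq start (table build GRCm38.p6), written 5′ to 3′ on the strand of the gene, from chr5:4104698-4104947 (minus strand) for Cyp51, chr13:8885356-8885605 (plus strand) for Idi1 and chr10:76531355-76531604 (plus strand) for Lss. Capitals mark TGACG, the core of the CRE, and CCAAT, the box bound by NF-Y, read on either strand.
Cyp51: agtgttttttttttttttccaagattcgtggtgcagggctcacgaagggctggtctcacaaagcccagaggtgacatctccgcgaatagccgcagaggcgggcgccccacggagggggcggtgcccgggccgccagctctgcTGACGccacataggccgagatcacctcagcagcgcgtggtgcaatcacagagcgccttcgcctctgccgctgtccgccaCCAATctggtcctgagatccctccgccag
Idi1: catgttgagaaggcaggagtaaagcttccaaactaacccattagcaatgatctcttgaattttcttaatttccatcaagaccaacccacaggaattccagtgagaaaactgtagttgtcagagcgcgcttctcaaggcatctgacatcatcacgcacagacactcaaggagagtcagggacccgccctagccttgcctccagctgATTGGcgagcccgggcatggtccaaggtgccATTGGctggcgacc
Lss: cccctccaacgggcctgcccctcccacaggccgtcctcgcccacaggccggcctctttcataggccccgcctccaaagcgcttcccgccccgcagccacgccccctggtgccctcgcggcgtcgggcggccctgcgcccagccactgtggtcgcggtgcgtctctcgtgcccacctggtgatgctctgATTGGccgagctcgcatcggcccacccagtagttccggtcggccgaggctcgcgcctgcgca
Of the 8 members 5 had such a stretch in the RefSeq table: the 3 shown, Hmgcs1 and Dhcr7, the last with 3 start sites. TGACG stood in the Cyp51 stretch at bases 108 to 104 before the start and, on the other strand, in that of Hmgcs1, and it was found in 17.8% of all 32851 stretches in the table. CCAAT was found for each of the 5 members, in Dhcr7 at 1 of its 3 start sites, against 33.8% of all stretches. The SRE letters TCACNCCAC were found in Hmgcs1 alone among the 5 (as TCACCCCAC, bases 137 to 129 before the start), against 1.05% of all stretches. The core letters bound by SOX proteins, ACAAT, were in none of the 5, against 27.7% of all stretches. The full CRE, TGACGTCA, which holds TGACG on both strands, was in none of the 5 (1.55% of all stretches), and the E-box CACGTG was in 1 start site of Dhcr7 (6.02%). Such matches describe letters only, and their absence from 250 bases says nothing about a factor.

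Levels were deposited as FPKM, fragments per kilobase of transcript and per mapped depth, so levels of different genes can be set side by side. Low FPKM values piled up at steps, which were taken as what 1 fragment is worth. On transcripts with a known length these steps correspond to about 14200000 and 19800000 fragments in wild-type libraries 1 and 2. In knockout libraries 1 and 2 they correspond to about 17600000 and 17200000. Steps were sought in a fixed range only, so a much shallower library could not have been seen as such. Changes were tested with limma on log2(FPKM + 1), a scale that understates the change of low genes, over the 9124 genes with a mean of at least 1 FPKM. Of these, 1221 were lower and 178 higher in the knockout at a limma adjusted p under 0.05, so 87.3% of the calls were falls, and 62.5% were after quantile normalization. The median change of all genes tested was -0.23 on the log2 scale, and 0.17 after quantile normalization. Sox30 itself, a check of the labels, was at 11.4 and 16.2 FPKM in wild-type cells and 1.46 and 3.16 FPKM in knockout cells (adjusted p = 0.0219 by limma). Its groups did not overlap, and its call ended with no filter (0.0660) and without wild-type library 1 (0.295) or 2 (0.357).

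The clearest difference was in Cyp51. It stood at 8.77 and 11.7 FPKM in wild-type cells, at 0.382 FPKM in knockout library 1 and at a listed 0 in knockout library 2. Both knockout values lay far below both wild-type values: the lower wild-type library held 22.9-fold more than knockout library 1. By the steps, 0.382 FPKM corresponds to about 26.5 fragments and 8.77 FPKM to about 491. A value of 0 in these tables can also be a failed estimate. Cyp51 fell by 3.25 on the log2 scale (SE 0.38, adjusted p = 0.00320 by limma). Its size depended on the pseudocount, at -5.54 with 0.1 and -1.55 with 5, and the call ended without wild-type library 1 (adjusted p = 0.106 by limma) or wild-type library 2 (0.135), fits in which 386 and 0 of all genes fell, with 1517 and 1412 genes at an unadjusted p under 0.05. In bulk samples fewer cells of a type and less RNA per cell cannot be told apart. The wild-type libraries held transcripts of Leydig cells and the knockout libraries almost none, as the marker lists described further on show, and the part of this in the fall of Cyp51 was not tested.

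**Figure D1:**
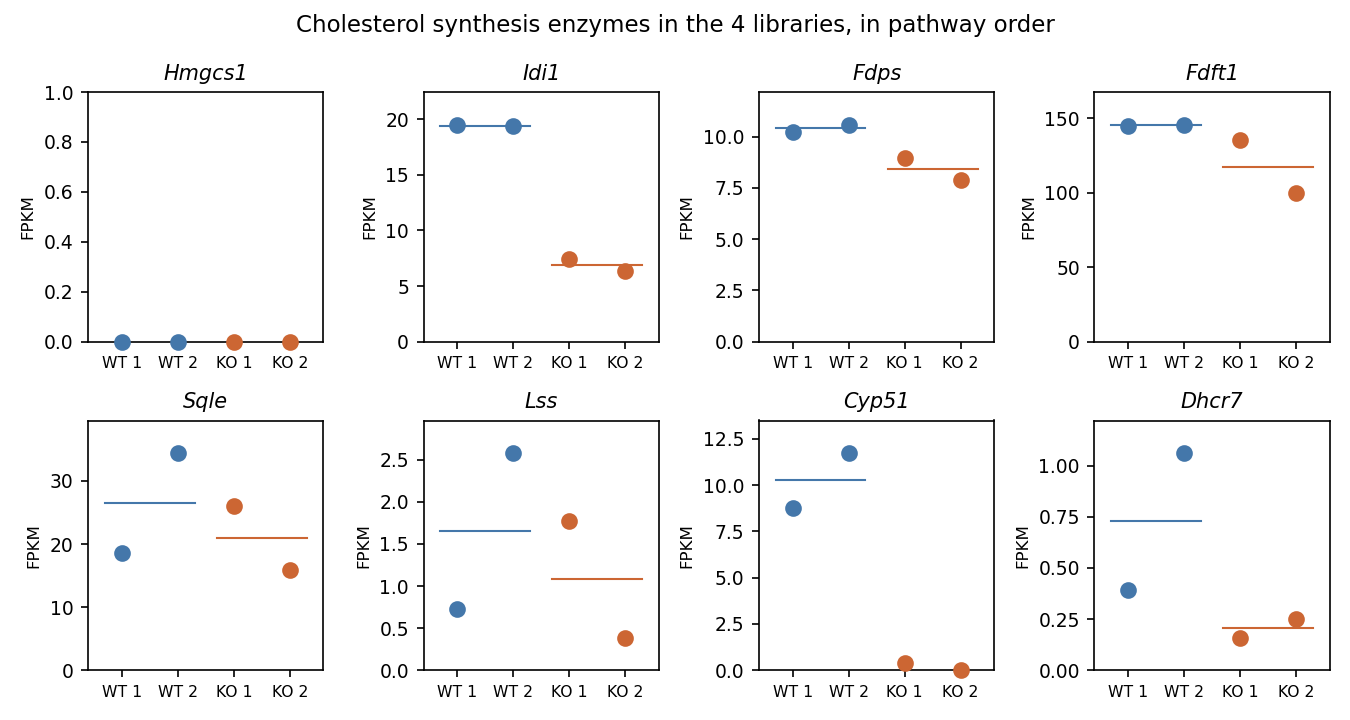
FPKM of the 8 enzymes in each of the 4 libraries (blue, wild type; orange, Sox30 knockout), one panel per gene in pathway order with an axis from 0; lines are the genotype means, drawn where no library is listed at 0. Cyp51 stands at 8.77 and 11.7 FPKM in wild-type cells against 0.382 and 0, Idi1 at 19.5 and 19.3 against 7.46 and 6.33, while the groups overlap for Sqle and Lss and Hmgcs1 is listed at 0 throughout.

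Idi1, which supplies the isomer that starts chain assembly, was the other member lower in the knockout. It was at 19.5 and 19.3 FPKM in wild-type cells, against 7.46 and 6.33 FPKM in knockout cells. Libraries of a genotype lay close together and the groups did not overlap, with wild-type 19.4 ± 0.122 (SD, n = 2) and knockout 6.89 ± 0.797 FPKM (SD, n = 2), a 2.82-fold difference of the means. Idi1 fell by 1.37 on the log2 scale (SE 0.32, adjusted p = 0.0411 by limma). This call was near the threshold. It ended with a pseudocount of 0.1 (adjusted p = 0.0550 by limma), no filter on low values (0.0561), median-ratio scaling (0.0582), quantile normalization (0.112), without wild-type library 1 (0.331) or 2 (0.335), and after correction of each library for the GC content of transcripts, which took the change to -0.76 (adjusted p = 0.195 by limma). The Idi1 transcript holds 41.9% GC, the lowest of the 8 members, whose highest is Dhcr7 with 52.8%.

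Fdps and Fdft1, the enzymes on either side of farnesyl diphosphate, did not pass the test. Fdps was at 10.2 and 10.6 FPKM in wild-type cells, against 8.98 and 7.88 FPKM in knockout cells. Fdft1 was the most abundant member in each library, at 145 and 146 FPKM in wild-type cells and 135 and 99.998 FPKM in knockout cells. For both genes the knockout values lay below the wild-type values, by a small margin: the lower wild-type value was 1.14 times the higher knockout value for Fdps and 1.07 times for Fdft1. Their log2 changes were -0.28 (SE 0.33, adjusted p = 0.60 by limma) and -0.32 (SE 0.29, adjusted p = 0.493 by limma), near the median of all genes. Quantile normalization gave 0.23 for Fdps and -0.25 for Fdft1.

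Sqle and Lss, which oxidize and cyclize squalene, varied more within a genotype than between genotypes. Sqle was at 18.6 and 34.4 FPKM in wild-type libraries 1 and 2 and at 26.1 and 15.9 FPKM in knockout libraries 1 and 2. Lss was at 0.730 and 2.58 FPKM in wild-type cells, against 1.78 and 0.378 FPKM in knockout cells. Both were highest in wild-type library 2, next in knockout library 1 and lowest in knockout library 2, and the groups overlapped. The log2 changes were -0.30 for Sqle (SE 0.44, adjusted p = 0.673 by limma) and -0.35 for Lss (SE 0.53, adjusted p = 0.688 by limma). Their sign turned without wild-type library 2 (0.13 and 0.18), without knockout library 2 (0.04 and 0.16) and with quantile normalization (0.04 and 0.19).

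The ends of the pathway were thinly covered. Dhcr7 was at 0.393 and 1.06 FPKM in wild-type cells, against 0.158 and 0.252 FPKM in knockout cells, about 15.8, 59.3, 7.84 and 12.2 fragments. Its knockout values lay below its wild-type values, but its mean was under 1 FPKM and it was not tested. With no filter on low values its log2 change was -0.49 (adjusted p = 0.30 by limma). Hmgcs1 was listed at 0 in all 4 libraries, on 2 entries in each table. Of the 259 symbols on several entries 39.4% were listed at 0 in all libraries, against 20.9% of the symbols on 1 entry. Hence no level is given for Hmgcs1.

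Of the 8 members, then, 6 passed the filter on low values, Cyp51 only through its wild-type level. Of these 6, 2 were lower in the knockout and 0 higher, where 13.4% of all genes tested were lower and 1.95% higher. For 4 of the 6 both knockout values lay below both wild-type values, against 38.6% of all genes tested, and for 0 of the 6 above, against 22.2%. The median log2 change of the 6 was -0.33, beside -0.23 for all genes tested. Taken relative to that median, Cyp51 was at -3.02, Idi1 at -1.15 and the other 4 between -0.12 and -0.05. After quantile normalization the values relative to the median were -3.11 for Cyp51, -1.07 for Idi1 and between -0.41 and 0.06 for the other 4.

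The shares of Cyp51 and Idi1 in the pathway's transcripts were lower in both knockout libraries than in either wild-type library. Fdft1 made up 71.3% and 64.7% of the summed FPKM of the 8 members in wild-type cells and 75.1% and 76.5% in knockout cells. Cyp51 made up 4.32% and 5.20% in wild-type cells, 0.212% in knockout library 1 and 0 in knockout library 2. Idi1 made up 9.60% and 8.57% against 4.14% and 4.84%, while Fdps, the next enzyme, made up 5.04% and 4.70% against 4.99% and 6.02%. Ratios within a library, which do not depend on a single scale factor per library, set each gene against its neighbours. They can still change with quantile normalization or GC correction. After GC correction the log2 change was -0.76 for Idi1 and -0.10 for Fdps, against -1.37 and -0.28 as reported. The ratios below are of the FPKM without such correction. Idi1 stood at 1.90 and 1.83 times the level of Fdps in the wild type and at 0.831 and 0.803 times in the knockout. The ratio of Fdft1 to Fdps was 14.2 and 13.8 in the wild type and 15.1 and 12.7 in the knockout, overlapping between genotypes. The level of Cyp51 was 12.0 and 4.55 times that of Lss, the step before it, in the wild-type libraries and 0.215 times in knockout library 1. Cyp51 was thus above Lss in both wild-type libraries and below it in knockout library 1, and the listed 0 in knockout library 2 gives no ratio.

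**Figure D2:**
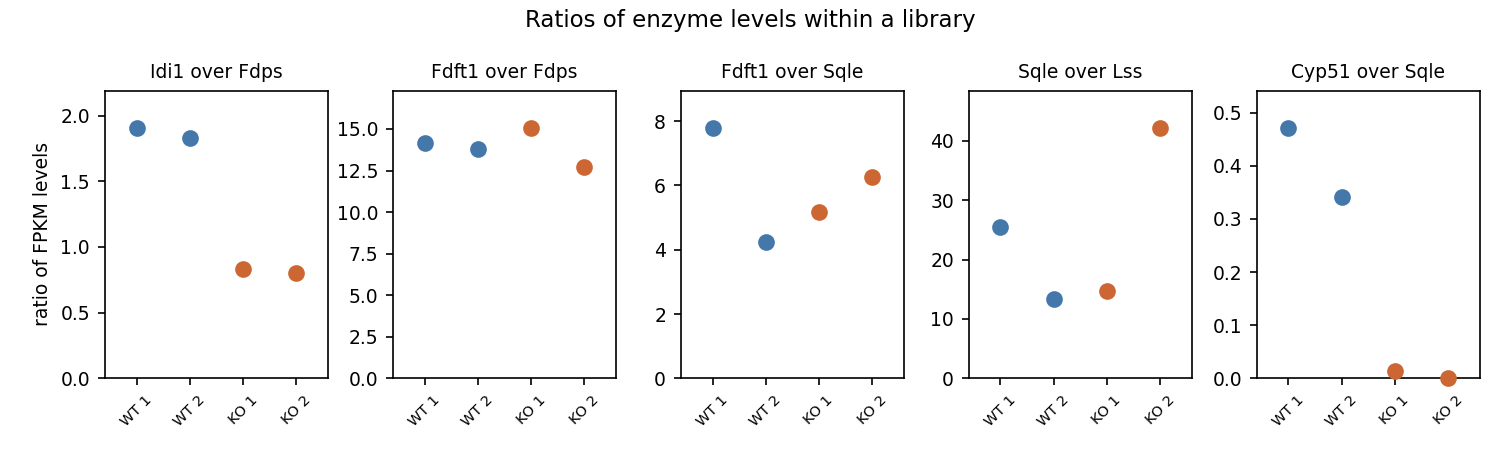
Ratios of FPKM between pairs of enzymes within each library (blue, wild type; orange, Sox30 knockout), each panel with its own axis from 0. Idi1 over Fdps is 1.90 and 1.83 in the wild type against 0.831 and 0.803 in the knockout, Cyp51 over Sqle is lower in both knockout libraries (at 0 in knockout library 2, where Cyp51 is listed at 0), and the groups overlap for the other 3 ratios.

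The order of the members by level differed between genotypes only in part. In the wild-type libraries Fdft1 was followed by Idi1 and Sqle, which changed places between the libraries, and then by Fdps and Cyp51, which changed places too. In both knockout libraries the order was Fdft1, Sqle, Fdps and Idi1. Fdft1 was higher than 96.6% and 96.9% of all symbols in the wild type and 96.5% and 96.0% in the knockout. Cyp51 was higher than 80.7% and 81.9% of symbols in the wild type and 55.3% in knockout library 1. For Idi1 these shares were 87.2% and 86.1% in the wild type and 81.0% and 81.9% in the knockout. Since more symbols were listed at 0 in the knockout libraries, these shares can stay level while the FPKM is lower.

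Of the other enzymes of the pathway 11 were examined, all with a symbol in the tables, and 8 passed the filter. Of the 8, 1 was lower in the knockout, 0 were higher and 7 did not pass, where 13.4% of all genes tested were lower. Their median log2 change was -0.53, beside -0.23 for all genes tested. The one that fell was Nsdhl, on chromosome X, which passed the filter only through its wild-type level. It encodes a dehydrogenase that with Msmo1 and Hsd17b7 removes the next methyl groups after the step of Cyp51. It was at 3.24 and 4.09 FPKM in wild-type cells, was at 0 in knockout library 1 and stood at 0.0549 FPKM in knockout library 2, a value of about 2.05 fragments. Nsdhl fell by 2.18 on the log2 scale (SE 0.32, adjusted p = 0.00761 by limma), with values of -4.91 at a pseudocount of 0.1 and -0.78 at 5. Without wild-type library 2 it no longer passed (adjusted p = 0.0667 by limma).

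The other enzymes near the step of Cyp51 did not pass the test or were too low to test. Lbr, which like Tm7sf2 reduces the sterol made by Cyp51, was at 1.51 and 2.72 FPKM in wild-type cells, 0.399 FPKM in knockout library 1 and 0 in knockout library 2 (log2 change -1.37, SE 0.37, adjusted p = 0.0620 by limma). It too passed the filter only through its wild-type level. It passed the test with median-ratio scaling (adjusted p = 0.0465 by limma), but not with quantile normalization (0.110), no filter (0.12) or GC correction (0.168). Without knockout library 1 or 2 its log2 change was -1.61 or -1.13. Without wild-type library 1 or 2 it was -1.65 or -1.08. Tm7sf2 was at 0.567 and 0.519 against 0.124 and 0.0883 FPKM and was below the filter. Msmo1, listed under its older symbol Sc4mol, was at 3.38 and 2.77 FPKM in wild-type cells and 2.71 FPKM in knockout library 1 but at a listed 0 in knockout library 2 (adjusted p = 0.305 by limma). Its change rests on that 0: it was -2.02 without knockout library 1 and -0.13 without knockout library 2. Hsd17b7 was at 0.219 and 0.283 against 0.398 and 0.386 FPKM, also below the filter.

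In the last steps Ebp, a sterol isomerase gene on chromosome X like Nsdhl, was at 1.19 and 2.53 FPKM in wild-type cells. It was at 3.04 and 1.78 FPKM in knockout cells (adjusted p = 0.695 by limma). Sc5d, a desaturase, was at 1.96 and 2.96 against 1.37 and 0.730 FPKM, with knockout values below wild-type values (adjusted p = 0.219 by limma). For Sc5d, and for Dhcr7, which was not tested, both knockout values lay below both wild-type values. This held for 38.6% of all genes tested. The groups of Ebp overlapped.

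Most of the mevalonate steps examined before Idi1 overlapped between genotypes. Acat2 (adjusted p = 0.676 by limma), Mvk (0.551) and Pmvk (0.985) had overlapping groups. Acat2, the thiolase at the entry, was at 0.681 and 2.57 against 0.785 and 1.19 FPKM. Mvk, mevalonate kinase, was at 2.34 and 3.13 against 5.31 and 2.77 FPKM. Pmvk, the kinase that follows, was at 2.16 and 2.72 against 1.14 and 4.63 FPKM. Mvd, the decarboxylase that makes isopentenyl diphosphate just before the step of Idi1, stood apart: it was at 1.13 and 2.29 FPKM in wild-type cells, at 0.0337 FPKM, about 1.09 fragments, in knockout library 1 and at 0 in knockout library 2. Its mean was under the filter, and without the filter its log2 change was -1.38 (adjusted p = 0.0804 by limma).

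**Figure D3:**
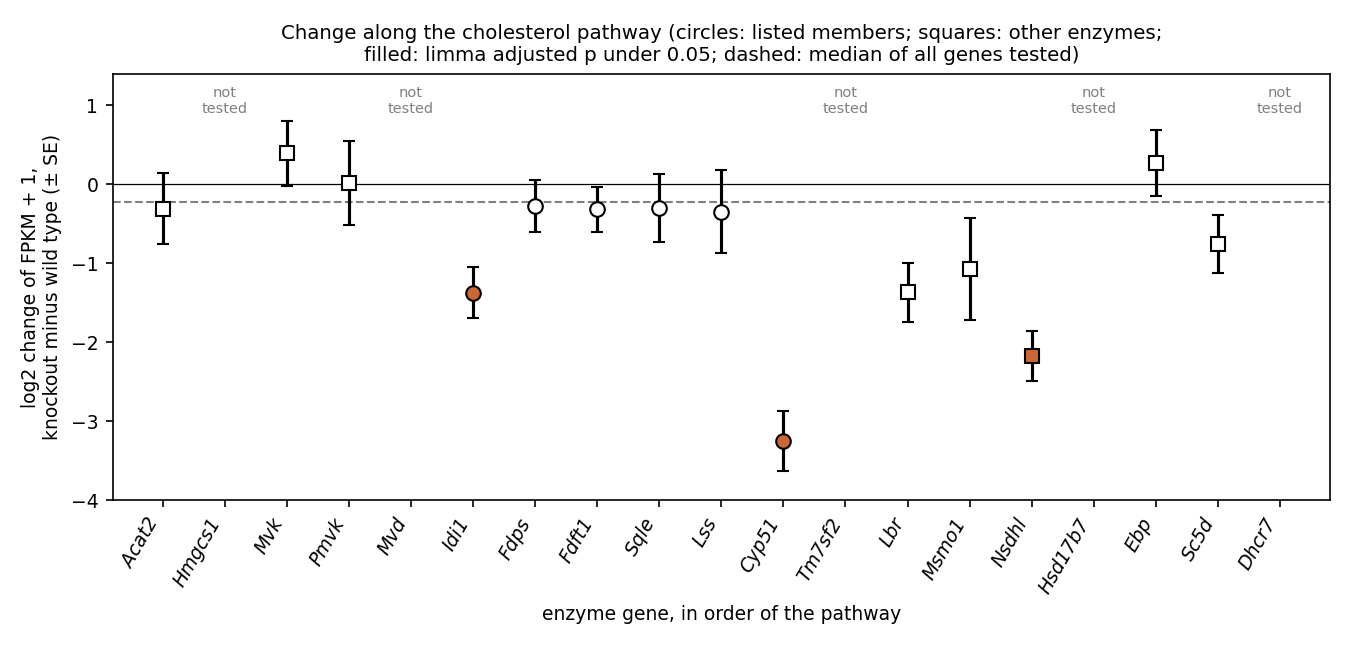
Log2 change of FPKM + 1, knockout minus wild type, with its standard error, for the 8 members (circles) and 11 other enzymes (squares) in pathway order (filled, limma adjusted p under 0.05; dashed line, median of all genes tested). Idi1, Cyp51 and Nsdhl are filled, at -1.37, -3.25 and -2.18, and the enzymes from Fdps to Lss lie close to the dashed line at -0.23.

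Genes that control the pathway or share its cofactors were for the most part not called. Of 15 regulators of the SREBP system and of sterol-driven degradation 14 had a symbol in the tables and 10 were tested, of which 1 was lower in the knockout and 0 were higher (median log2 change -0.08), beside 13.4% lower and 1.95% higher among all genes tested. This was Rnf139, a ubiquitin ligase of the endoplasmic reticulum, at 23.3 and 37.5 FPKM in wild-type cells and 10.3 and 3.97 FPKM in knockout cells (log2 change -2.03, SE 0.50, adjusted p = 0.0486 by limma). Its call ended with robust empirical Bayes (adjusted p = 0.0513 by limma), after GC correction (0.0505), with a pseudocount of 0.1 (0.0841), with no filter (0.117) and without wild-type library 1 (0.366) or 2 (0.479). Insig2, which holds the SREBP complex in the endoplasmic reticulum when sterols are plentiful, was the most abundant of these regulators, at 42.4 and 47.4 against 60.5 and 41.5 FPKM. Faf2, also known as Ubxd8, which works beside such ligases, was at 14.5 and 17.2 against 23.1 and 8.52 FPKM. Srebf2, the SREBP gene most tied to cholesterol, was at 0.671 and 1.24 FPKM in wild-type cells and 1.76 and 0.848 FPKM in knockout cells (adjusted p = 0.718 by limma; named after its values were seen).

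Of 6 tested electron donors and binding partners of the sterol enzymes 0 were lower and 0 higher by limma at an adjusted p under 0.05. Among all genes tested 13.4% were lower and 1.95% higher. Cyb5a, a cytochrome b5 listed as Cyb5, was at 29.6 and 29.5 against 49.1 and 40.0 FPKM, and its reductase Cyb5r3 at 13.2 and 18.2 against 21.0 and 9.51 FPKM. Pgrmc1, a haem protein that binds Cyp51, was at 18.9 and 22.1 against 7.97 and 12.4 FPKM (log2 change -0.96, SE 0.36, adjusted p = 0.136 by limma). After GC correction its adjusted p was 0.463 by limma. Without knockout library 1 or 2 its log2 change was -0.68 or -1.25. Without wild-type library 1 or 2 it was -1.07 or -0.86. Of 13 genes that take isoprenoids off the pathway for prenylation, dolichol and ubiquinone, 10 were tested. Of these 10, 0 were lower and 0 higher by limma, beside 13.4% and 1.95% of all genes tested. The most abundant of the 13 genes, the farnesyltransferase subunit Fnta, was at 61.5 and 71.0 against 71.0 and 66.1 FPKM. Rabggtb was at 11.1 and 8.74 against 10.9 and 8.35 FPKM, and Rce1 at 9.06 and 6.70 against 12.6 and 11.1 FPKM.

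Of 14 genes of sterol uptake, storage and transport 9 were tested, of which 1 was lower and 0 were higher (median log2 change -0.54), beside 13.4% lower and 1.95% higher among all genes tested. Osbp, an oxysterol-binding protein that carries cholesterol to the Golgi, was at 10.6 and 11.8 FPKM in wild-type cells and 1.68 and 1.20 FPKM in knockout cells. Its log2 change was -2.32 (SE 0.35, adjusted p = 0.00884 by limma), and the call ended without wild-type library 1 (0.189) or 2 (0.204). Its relative Osbp2 was at 11.7 and 28.3 against 7.72 and 3.45 FPKM (adjusted p = 0.111 by limma), and passed after GC correction (0.0134). The log2 change of Osbp2 was -1.63. It was -2.12 or -1.15 without knockout library 1 or 2 and -2.23 or -1.03 without wild-type library 1 or 2. Npc2, which hands cholesterol out of lysosomes, was at 8.42 and 9.72 against 10.6 and 10.2 FPKM.

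Markers of other cell types moved with genotype beside these results. Of 9 Leydig cell markers 8 were at 0 in knockout library 2 and 7 in knockout library 1. In wild-type library 1 there was 1 at 0 and in wild-type library 2 there were 2. Of all 22552 symbols 9329 and 11112 were at 0 in knockout libraries 1 and 2. In wild-type libraries 1 and 2 these numbers were 6414 and 5915. The summed level of the Leydig markers was 60.4 and 37.9 FPKM in wild-type cells against 0.0674 and 0 FPKM. Most of that sum came from Insl3, at 54.8 and 30.3 FPKM and, in the knockout libraries, at values far below that of 1 fragment, while Cyp11a1 and Cyp17a1, enzymes of steroid synthesis, stood at 1.87 and 1.94 and at 2.50 and 3.40 FPKM in wild-type cells. Star and Hsd3b1 were under 1 FPKM and Hsd17b3 was at 0 in all libraries. Summed spermatogonial markers, 6 genes, were at 29.1 and 32.5 against 6.03 and 3.28 FPKM, with Stra8, Dmrt1 and Kit at 0 in both knockout libraries. Summed red blood cell genes, 5 in number, were at 248 and 148 against 8.51 and 0.178 FPKM, with the near-identical globin copies uncertain one by one. Their part in the lower levels of Cyp51, Idi1 and Nsdhl was not tested.

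Sertoli cell markers, 10 genes, summed to 91.0 and 245 FPKM in wild-type cells and 75.2 and 44.1 FPKM in knockout cells, with Clu at 82.1, 218, 62.9 and 21.2 FPKM in wild-type libraries 1 and 2 and knockout libraries 1 and 2. Without Clu the sums overlapped, at 8.90 and 27.3 against 12.2 and 22.9 FPKM. Of the 10 markers 7 overlapped between genotypes, but 7 of the 10 were below the filter. Of the 3 tested 2 overlapped, where 3574 of all 9124 genes tested did. Amh, a defining marker of immature Sertoli cells, was at 0 in all libraries. Of 8 spermatocyte markers none was called by limma, where 13.4% of all genes tested were lower and 1.95% higher. For 6 of the 8 both knockout values lay below both wild-type values (38.6% of all genes tested). The median log2 change of the 8 was -0.81, beside -0.23 for all genes tested. The 8 markers summed to 488 and 467 against 566 and 436 FPKM. That sum includes Ccna1, at 163 and 192 against 369 and 210 FPKM. Ccna1 was the 1 marker with both knockout values above both wild-type values (22.2% of all genes tested). Peritubular markers, 5 genes, summed to 9.44 and 7.61 against 1.53 and 2.23 FPKM, and 5 macrophage markers to between 1.14 and 3.50 FPKM.

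Of 12 markers of round spermatids, the labelled cell type, all were present in the wild type and 10 were lower in the knockout (13.4% of all genes tested), with summed levels of 12161 and 7489 against 477 and 306 FPKM. Crem, the activator named above for Cyp51 in haploid cells, was at 209 and 167 against 166 and 114 FPKM (adjusted p = 0.394 by limma). Acr, the acrosin gene, was at 348 and 273 against 162 and 108 FPKM (adjusted p = 0.0602 by limma). Crem and Acr were the 2 markers of the list that did not pass. Among the 10 called, Tnp1 was at 1516 and 968 against 4.82 and 0 FPKM. Prm1 was at 5537 and 3145 against 25.2 and 1.54 FPKM, and Catsper1 at 13.5 and 12.3 FPKM against 0 in both knockout libraries. Levels of the list in the knockout thus ranged from those of Crem down to a listed 0. The part of this in the lower levels of Cyp51, Idi1 and Nsdhl was not tested.

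**Figure D4:**
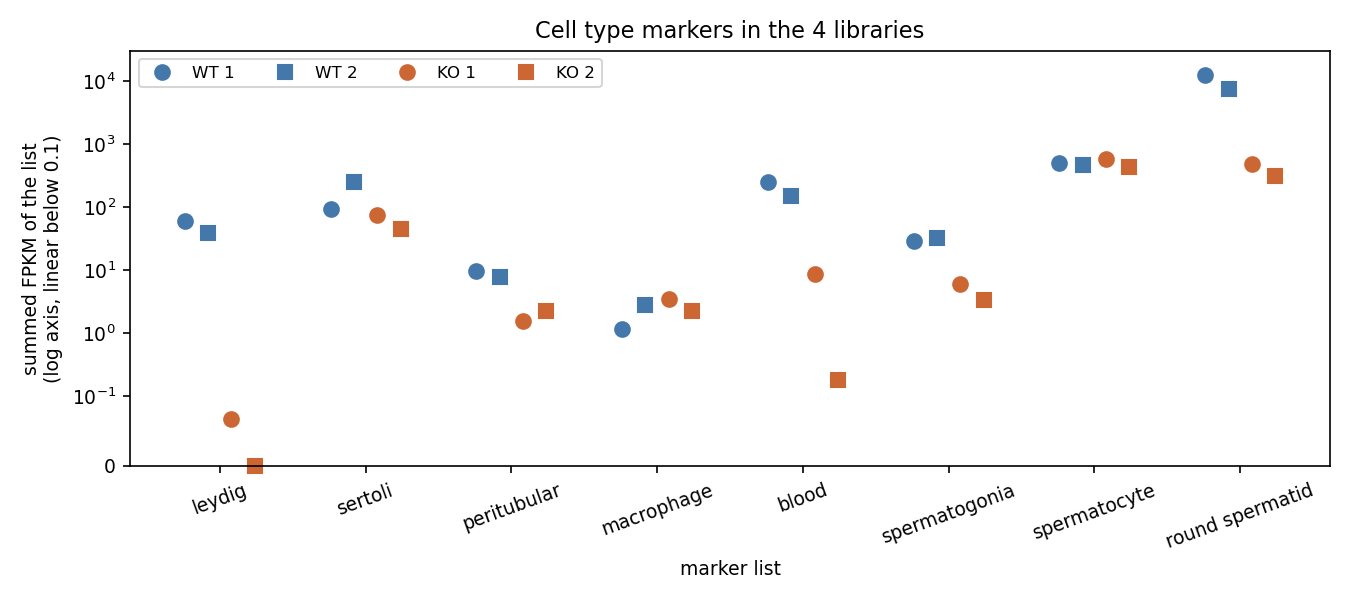
Summed FPKM of each marker list in the 4 libraries (log axis, linear below 0.1; blue, wild type; orange, Sox30 knockout; circles, library 1; squares, library 2). Leydig, blood, spermatogonial, Sertoli, peritubular and round spermatid lists are lower in both knockout libraries. The macrophage list overlaps between genotypes. The spermatocyte list overlaps too, at 436 to 566 FPKM, with a sum that includes Ccna1, which is higher in both knockout libraries.

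By the largest difference in log2(FPKM + 1) over the 4 libraries, the genes most like Cyp51 were Ccdc37, at 9.29, 13.1, 0.430 and 0 FPKM in wild-type libraries 1 and 2 and knockout libraries 1 and 2, and Gm14479, at 9.95, 11.1, 0.416 and 0 FPKM. They differed from Cyp51 by at most 0.15 and 0.16. Nearest to Idi1 were 4930428D18Rik and Cnot7, within 0.13 and 0.14, the latter at 17.6, 18.8, 6.99 and 6.10 FPKM. Fdps was nearest to App and Pet112l (0.10 and 0.12), and Fdft1 to Mif4gd and Gm70 (0.18 and 0.20). Sqle was nearest to Morc2b and Slc41a3 (0.16 and 0.24), and Lss to Plk2 and Men1 (0.08 and 0.15). No pair of members was nearest to each other. With 4 libraries, many genes share a profile, and this likeness is a description only.

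**Figure D5:**
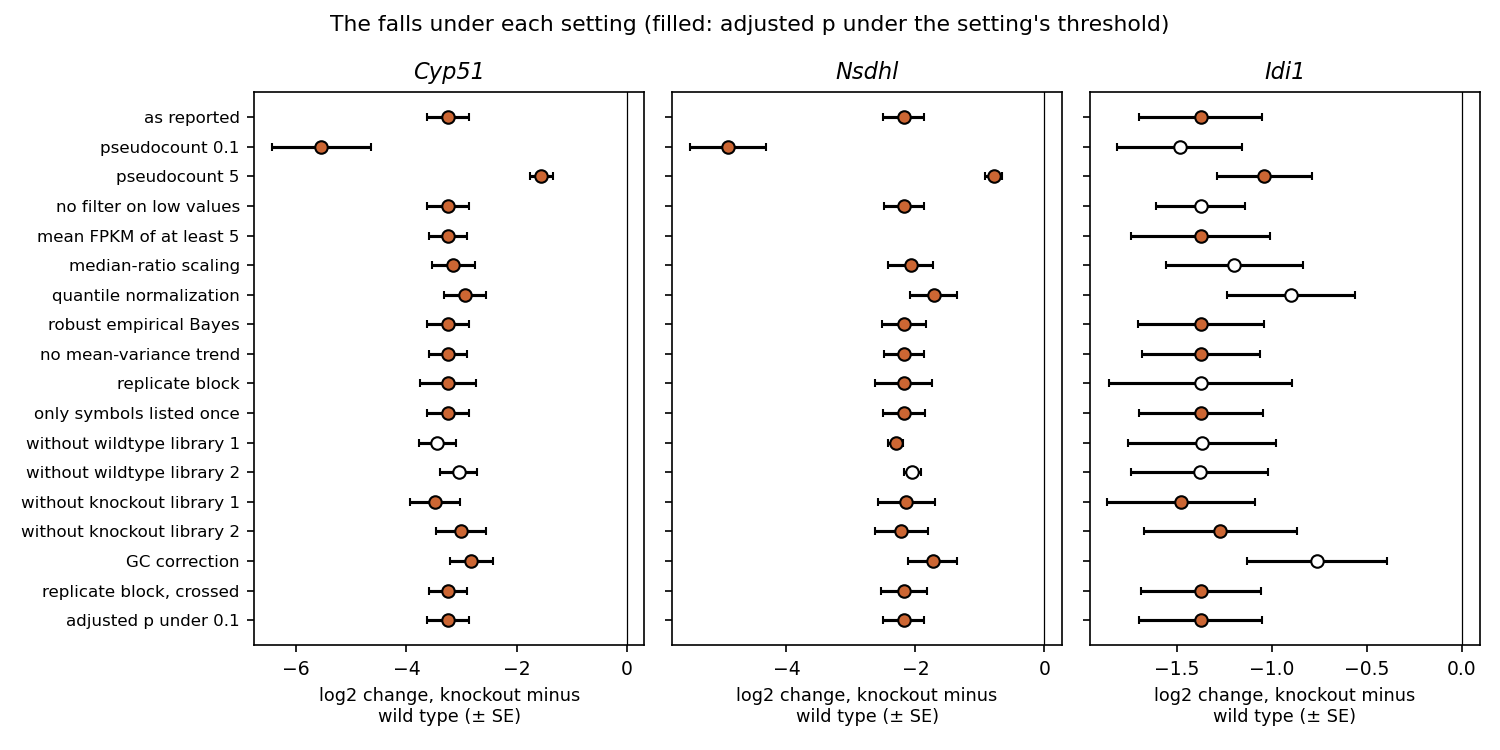
Log2 change, knockout minus wild type, with its standard error, of Cyp51, Nsdhl and Idi1 as reported and under 17 other settings (filled, adjusted p under the threshold of the setting). All values lie below 0. Cyp51 is open only without a wild-type library, Nsdhl only without wild-type library 2 (it has no value at a minimum of 5 FPKM), and Idi1 under 8 settings.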

How the data were processed

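RNA of sorted haploid testis cells was sequenced from 2 wild-type and 2 Sox30 knockout libraries, with library construction by NEBNext Ultra RNA reagents according to the labels' protocols. The authors deposited FPKM per gene symbol. Tools listed in the submitters' processing notes are Cufflinks 2.0.2, Cuffdiff and TopHat2 2.0.6, with mm9 as the build and neither roles nor settings. Whether counting used strand is not stated there, and a gene and its antisense partner cannot be told apart. Read counts were not used here.

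Groups came from the sample titles. Each table held 23021 entries for 22552 symbols, and the 259 symbols on several entries were summed. Genes with a mean of at least 1 FPKM (9124) were tested on log2(FPKM + 1) with limma 3.58.1 (R 4.3.3), genotype as the only term, empirical Bayes with a mean-variance trend, two-sided, Benjamini-Hochberg adjusted over all genes tested, threshold 0.05. Residual degrees of freedom were 2. The fit was run on simulated data to check the sign and recovery of large added changes. The simulated noise was equal in both genotypes, and no limit was set on false calls.

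Members and lists were chosen with earlier results of these data known. Named genes were the members, Sox30, the other pathway enzymes, up to 4 called genes and the 3 most abundant of each further list, and the 2 nearest genes of each member. Transcript length and GC content came by symbol from the longest GENCODE M21 transcript (98.6% of genes tested). The value of 1 fragment was read as the tallest pile-up of FPKM times length in a fixed low range, among genes with 1 annotated transcript. Within 0.1 log2 of it lay 85 of 855 and 102 of 950 genes used in wild-type libraries 1 and 2. In knockout libraries 1 and 2 these were 38 of 513 and 27 of 340, so numbers of fragments are approximate. Promoter sequences came from RefSeq, GRCm38.p6, and no coordinates of the authors' build were used. Results of 3 genes of these lists are not reported here, and counts over lists leave them out. The 17 other settings included pseudocounts of 0.1 and 5, a minimum of 5 FPKM and a lowess GC correction (span 0.3).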

Additional observations from a re-analysis of the deposited data

How the results depend on the processing

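Of 450 values of 27 named genes under other settings, 385 kept their direction and side of the threshold, 23 lost the call, 11 gained it and 31 changed sign, none of the last in a called gene. Genes lower numbered 787 with a minimum of 5 FPKM and 0 to 3071 without 1 library. Genes higher numbered 113 with a pseudocount of 0.1, 62 with no filter, 283 with median-ratio scaling, 608 with quantile normalization, 323 after GC correction, 414 at an adjusted p under 0.1 and 0 to 984 without 1 library. Members lower numbered 1, in place of 2, with a pseudocount of 0.1, no filter, median-ratio scaling, quantile normalization and GC correction, and 0 to 2 without 1 library. The member median was -0.49 with a pseudocount of 0.1, -0.19 with median-ratio scaling, -0.10 with quantile normalization, -0.15 after GC correction and -0.80 to -0.15 without 1 library. That of all genes was 0.17 with quantile normalization and 0.017 after GC correction.

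Other pathway enzymes lower numbered 0 with a minimum of 5 FPKM, which Nsdhl does not reach, 2 with median-ratio scaling and at an adjusted p under 0.1, and 0 to 3 without 1 library. Regulator, donor, branch and transport genes lower numbered 2 as reported, 1 with robust empirical Bayes, 4 at an adjusted p under 0.1 and 0 to 13 without 1 library. Those higher numbered 0 as reported, 1 with quantile normalization and 0 to 2 without 1 library. Differences between libraries 1 and 2 in log2(FPKM + 1) had an SD across genes of 0.49 in the wild type and 0.85 in the knockout. The fit with all libraries uses the same variance of a gene for both genotypes. Fits without 1 library assume that the lone library varies like the other genotype. The cause of the moves was not tested.

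Signs turned, none with a call, with quantile normalization for Fdps (0.23), Sqle (0.038), Lss (0.19), Acat2 (0.23), Faf2 (0.29), Cyb5r3 (0.32) and Rabggtb (0.47), with median-ratio scaling for Faf2 (0.030), Cyb5r3 (0.059) and Rabggtb (0.13), after GC correction for Sqle (0.0029), Pmvk (-0.22), Faf2 (0.091) and Rabggtb (0.47), and with a pseudocount of 0.1 for Pmvk (-0.059). Without 1 library the changes ranged from -0.73 to 0.13 for Sqle, -0.87 to 0.18 for Lss, -0.85 to 0.23 for Acat2, -0.68 to 0.72 for Pmvk, -0.077 to 0.61 for Ebp, -0.11 to 0.43 for Insig2, -0.82 to 0.52 for Faf2, -0.65 to 0.42 for Cyb5r3, -0.050 to 0.15 for Fnta and -0.22 to 0.13 for Rabggtb.

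The shared library numbers do not pair the samples by any label. With the replicate block 82 genes were higher, 1 member (Cyp51) and 1 gene of the regulator, donor, branch and transport lists were lower, and Idi1 had a limma adjusted p of 0.116 and Rnf139 of 0.0548. It left 1056 genes lower and changed the call of no other named gene. Differences between libraries 1 and 2 correlated at -0.20 across genes between genotypes, and the crossed block, chosen after seeing the data, gave 390 genes higher, 2 other pathway enzymes lower and 4 regulator, donor, branch and transport genes lower. Values under 1 FPKM rest on few fragments: Nsdhl, Mvd and Dhcr7 in the knockout stand for about 12.2 fragments or fewer.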
